A study of Mus musculus with 34 samples.

Results

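The adhesion molecule Vcam1 and 7 further genes by which hematopoietic stem cells (HSCs) hold to or home to the bone marrow niche (Itga4, Itga6, Itgb1, Cxcr4, Cd44, Icam1 and Esam) were followed in HSCs with and without the m6A reader YTHDF2. All 8 were present among the 13108 gene rows of the count table. They were chosen by the Vcam1 levels of the aged mice, where the gene is lower in knockout HSCs, so every value from the aged genotype comparison is given as a description without a test. HSCs were sorted as LSK CD48-CD150+ bone marrow cells from C57BL/6 mice, and RNA of 100 cells per library was sequenced by SMART-Seq2. Knockout mice (Ythdf2 fl/fl;Vav-iCre, termed CKO, labelled KO) lost Ythdf2 in the hematopoietic lineages, where Vav-iCre is active. Control mice (Ythdf2 fl/fl without Cre, termed CTL, labelled WT) carried the same floxed allele, in which exon 2 is flanked by loxP sites and GFP is fused to YTHDF2. There were 4 young CTL, 4 young CKO, 4 aged CTL and 5 aged CKO mice, the aged mice being 1 year old, with 2 libraries (A and B) from each mouse. The libraries of a mouse were summed, and library B of the mouse aged CTL 99, with 187034 counts, was left out, so that 33 libraries from 17 mice were used.

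Adhesion molecules anchor HSCs in the marrow and guide them back to it after transplantation. The integrin VLA-4, a dimer of the α4 chain (Itga4) and the β1 chain (Itgb1), binds VCAM-1 on endothelial cells, stromal cells and macrophages of the niche, while VCAM-1 on hematopoietic cells themselves is known as a tag that protects them from phagocytosis. The α6 chain (Itga6) pairs with β1 to bind laminins, CXCR4 is the receptor for the chemokine CXCL12, CD44 binds hyaluronan, ICAM-1 is a ligand of the β2 integrins, and ESAM is a junctional immunoglobulin-family protein that marks HSCs. YTHDF2 binds mRNAs that carry N6-methyladenosine (m6A) and promotes their degradation, and m6A lies most often in a short context of which GGACT and GGACA are common forms.

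Coding sequence around such letters is shown for the 3 members whose values differed most between groups, taken from the GENCODE M21 transcripts (build GRCm38, 5′ to 3′ on the strand of the gene). Each is the match nearest to the stop codon whose 25 bases fall in 1 exon, and the capitals mark the 5 matched letters.
Vcam1: tgtctgcaaaGGACActggaaaaga
Itga4: cttgctacttGGACTtattgtactt
Itga6: tgaactacttGGACAttctcctgag
The Vcam1 window is at chr3:116120819-116120843 on the minus strand, in exon 5 of 9. The Itga4 window is at chr2:79325643-79325667 on the plus strand, in exon 27 of 28, and the Itga6 window is at chr2:71846177-71846201 on the plus strand, in exon 23 of 26. Vcam1 held 0 copies of GGACT and 2 of GGACA in its 2220 coding bases, Itga4 held 4 and 9 in 3099 bases, and Itga6 held 3 and 6 in 3222 bases. Itgb1 and Cxcr4 also held 0 copies of GGACT, against 5 in Cd44, 3 in Icam1 and 2 in Esam. Over the coding sequences of 21665 genes, 71.8% held GGACT and 77.4% held GGACA at least once. The search covered the sense strand of 1 main transcript per gene, the motifs cannot overlap each other, and a match is a description of letters, since m6A was not measured in these libraries.

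Library totals ran from 1859784 to 7784627 counts, and 3 counts, the limit that a count of 0 allows, corresponded to 0.296 to 1.35 CPM (counts scaled to a common library total) in a mouse. Levels are given as CPM scaled by edgeR's TMM factors. All 10 HSC marker genes examined, among them Kit, Ly6a, Slamf1 and Hlf, had counts in each group. Ythdf2 itself lay at 50.6 to 60.0 CPM in young CKO mice and at 92.9 to 124 CPM in young CTL mice. In aged mice it ran against the label in 2 mice: the mouse labelled aged CKO 121 had 186 CPM against 72.6 to 87.7 CPM in the other aged CKO mice, and the mouse labelled aged CTL 124 had 71.3 CPM against 142 to 178 CPM in the other aged CTL mice. Aged genotype values are therefore given with and without these 2 mice. The codes in the description labels of young and aged samples differ in their stem, and age and whatever these codes mark cannot be told apart. Y-linked genes were detected in 3 of 4 young CTL mice and in 1 mouse of each of the other groups, apart from 1 Ddx3y count in aged CTL 114.

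Vcam1 counts were few in aged CKO HSCs. The aged CTL mice 65, 99, 114 and 124 had 184, 36, 55 and 107 Vcam1 counts, or 19.2, 14.7, 10.2 and 15.2 CPM. The aged CKO mice 78, 81, 94, 121 and 122 had 4, 7, 2, 12 and 0 counts, or 0.432, 0.682, 0.389, 1.56 and 0 CPM. The highest aged CKO mouse was thus below the lowest aged CTL mouse, and that highest mouse was 121, whose Ythdf2 level went against its label. Mouse 124, the other such mouse, had the second highest Vcam1 level of the aged CTL mice. For mouse 122, a count of 0 allows up to 0.447 CPM before TMM scaling. Group means were 0.612 ± 0.583 CPM (SD, n = 5) in aged CKO and 14.8 ± 3.67 CPM (SD, n = 4) in aged CTL mice. The fitted log2 fold change was -4.53 (SE 0.81), and -5.19 (SE 0.84) without mice 121 and 124. Of the 11961 genes fitted in this comparison, 3.49% had groups of mice that did not overlap, a share given for scale, since Vcam1 was chosen for this fall. Leaving out 1 mouse at a time gave -5.19 to -4.22, and leaving out 1 library at a time, a setting chosen after the data were seen, gave -5.39 to -3.94.

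In young mice, which played no part in the choice of Vcam1, the gene showed no difference past the test. The young CTL mice 1 to 4 had 10.3, 19.7, 18.4 and 4.34 CPM, and the young CKO mice 1 to 4 had 4.57, 2.20, 17.7 and 7.55 CPM. Both groups spanned low and high mice and overlapped over most of their range. The log2 fold change in CKO was -0.71 (SE 0.60, 95% interval -1.995 to 0.57; adjusted p = 0.894, edgeR quasi-likelihood test). Much rested on the mouse young CKO 3, without which the log2 fold change was -1.46 (adjusted p = 0.452 by the same edgeR test), and on young CKO 2 and young CTL 2, without which it was -0.40 and -0.46. A covariate for Y-linked genes gave -0.39. Aged and young CTL mice had Vcam1 levels of 14.8 ± 3.67 CPM and 13.2 ± 7.19 CPM (SD, n = 4 each), a log2 difference of 0.18 (SE 0.51) given without a test because the aged CTL mice belong to the contrast that chose the gene. It was 0.85 with the covariate for Y-linked genes and -0.13 without the mouse young CTL 4, so that its sign turned. Ordered by median, the groups ran from aged CKO through young CKO and young CTL to aged CTL, and each neighbouring pair overlapped except aged CKO and young CKO.

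**Figure D1:**
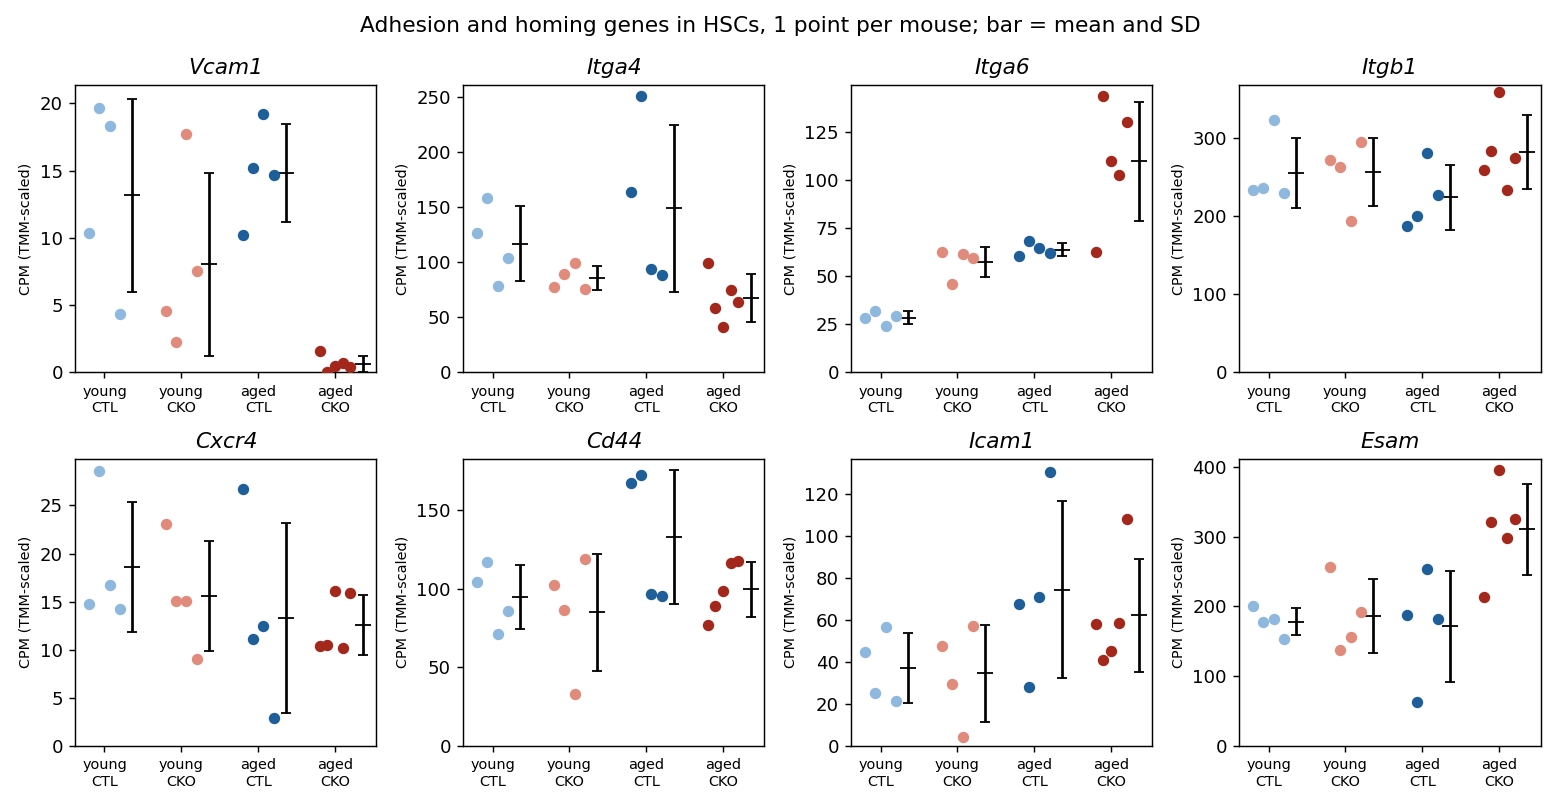
Level of each of the 8 genes in CPM (vertical axes, starting at 0) for every mouse (1 point each) in young CTL, young CKO, aged CTL and aged CKO groups, with the group mean and SD as a bar. Vcam1 lies at 0 to 1.56 CPM in all 5 aged CKO mice and at 10.2 to 19.2 CPM in aged CTL mice, and Itga6 lies at 24.0 to 32.0 CPM in young CTL and at 62.4 to 144 CPM in aged CKO mice.

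Vcam1 was also the member that differed most between the 2 libraries of 1 mouse. In 4 of 16 mice, 1 library had 0 Vcam1 counts and the other more than 20. Mouse aged CTL 65 had 184 counts in library A and 0 in library B, and aged CTL 114 had 0 in A and 55 in B. Mouse young CKO 3 had 93 and 0, and young CTL 4 had 0 and 25. In all, 10 of 33 libraries had a Vcam1 count of 0, of which 6 were among the 10 aged CKO libraries, 2 among the 7 aged CTL libraries and 1 each among the 8 young CTL and 8 young CKO libraries. The other 7 members had counts in each of the 33 libraries. The median absolute log2 ratio of library A to B was 1.58 for Vcam1, and 0.21 to 0.58 for the others.

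Endothelial markers were counted beside Vcam1 in part of the libraries, and macrophage markers did not follow it in each library. Cdh5 (VE-cadherin) and Stab2 (a sinusoidal scavenger receptor) mark endothelial cells (both picked from a list of 9 after the values were seen), and the complement genes C1qa, C1qb and C1qc mark macrophages. Among the 16 young libraries, which took no part in the choice of Vcam1, the 5 with at least 10 counts of Cdh5 and Stab2 together, a threshold chosen after the values were seen, had 12.4 to 26.4 CPM of Vcam1 (median 20.5). The other 11 young libraries had 0 to 12.3 CPM (median 4.08), and 2 of them had a count of 0. In library A of aged CTL 65, the 184 Vcam1 counts came with 34 Cdh5 and 183 Stab2 counts, while library B had 0 Vcam1, 0 Cdh5 and 12 Stab2 counts. Library A of young CKO 3 had 21 Cdh5 and 50 Stab2 counts beside its 93 Vcam1 counts, and its library B had 0 of each. By group, 5 of 7 aged CTL, 1 of 10 aged CKO, 4 of 8 young CTL and 1 of 8 young CKO libraries reached the 10 counts. The summed C1q genes ran from 0 to 5.27 CPM in aged CKO libraries, and from 2.37 to 87.9 CPM in aged CTL, 2.64 to 58.4 CPM in young CTL and 5.04 to 50.7 CPM in young CKO libraries. The libraries of young CTL 3 had 65 and 62 Vcam1 counts beside 17 and 8 C1q counts, library A of aged CTL 65 had 9 C1q counts and its library B 55, and library A of young CKO 2 had 4 Vcam1 beside 123 C1q counts. Vcam1 counts without Cdh5 or Stab2 counts were present too, as in library A of aged CTL 124 (43 counts, beside 142 C1q counts) and library B of young CKO 4 (34 counts, beside 140 C1q counts). The whole list of 9 endothelial markers, several of which HSCs also express, summed to 233 to 372 CPM in aged CTL and 223 to 292 CPM in aged CKO mice, and to 149 to 254 CPM in young CTL and 172 to 217 CPM in young CKO mice. Its members did not all run the same way. Tek had a median of 85.1 CPM in aged CKO against 53.2 CPM in aged CTL mice, and of 64.6 against 51.5 CPM in young mice, and Pecam1 had 52.8 against 50.9 CPM and 36.5 against 29.5 CPM. Medians of Emcn were lower in CKO mice, at 14.8 against 38.4 CPM in aged and 34.0 against 59.6 CPM in young mice, as were those of Flt1, Ramp2 and Kdr at both ages, while Tie1 was lower in aged (72.9 against 94.1 CPM) and higher in young CKO mice (34.3 against 31.5 CPM). The 9 measured macrophage markers of 11 listed summed to 21.2 to 75.2 CPM in aged CTL and 8.45 to 18.5 CPM in aged CKO mice. Adgre1 and Cd5l had 0 counts in all aged CKO mice, but also in 3 and 2 of the 4 aged CTL mice. Spic ran the other way, from 0 to 4.17 CPM in aged CTL and from 2.08 to 6.16 CPM in aged CKO mice. So did Mertk, with 2 counts in all aged CTL and 21 in all aged CKO mice. Cd163 (4.49 to 11.3 and 4.55 to 9.14 CPM) and Csf1r (16 and 22 counts) overlapped. The 3 measured stromal markers of 9 listed summed to 4.48 to 45.3 CPM in aged CTL and 8.57 to 20.3 CPM in aged CKO mice, ranges that overlap. Medians of that sum in CTL and CKO were 26.3 and 11.1 CPM in aged and 6.19 and 6.29 CPM in young mice. The study's sort stained lineage markers, CD11b and Gr-1 among them, and kept lineage-negative c-Kit+ Sca-1+ cells. No endothelial marker was in that lineage stain. The part of endothelial cells, macrophages and stromal cells in the Vcam1 difference was not tested. Fewer cells of a type and less RNA per cell cannot be told apart in these bulk samples.

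**Figure D2:**
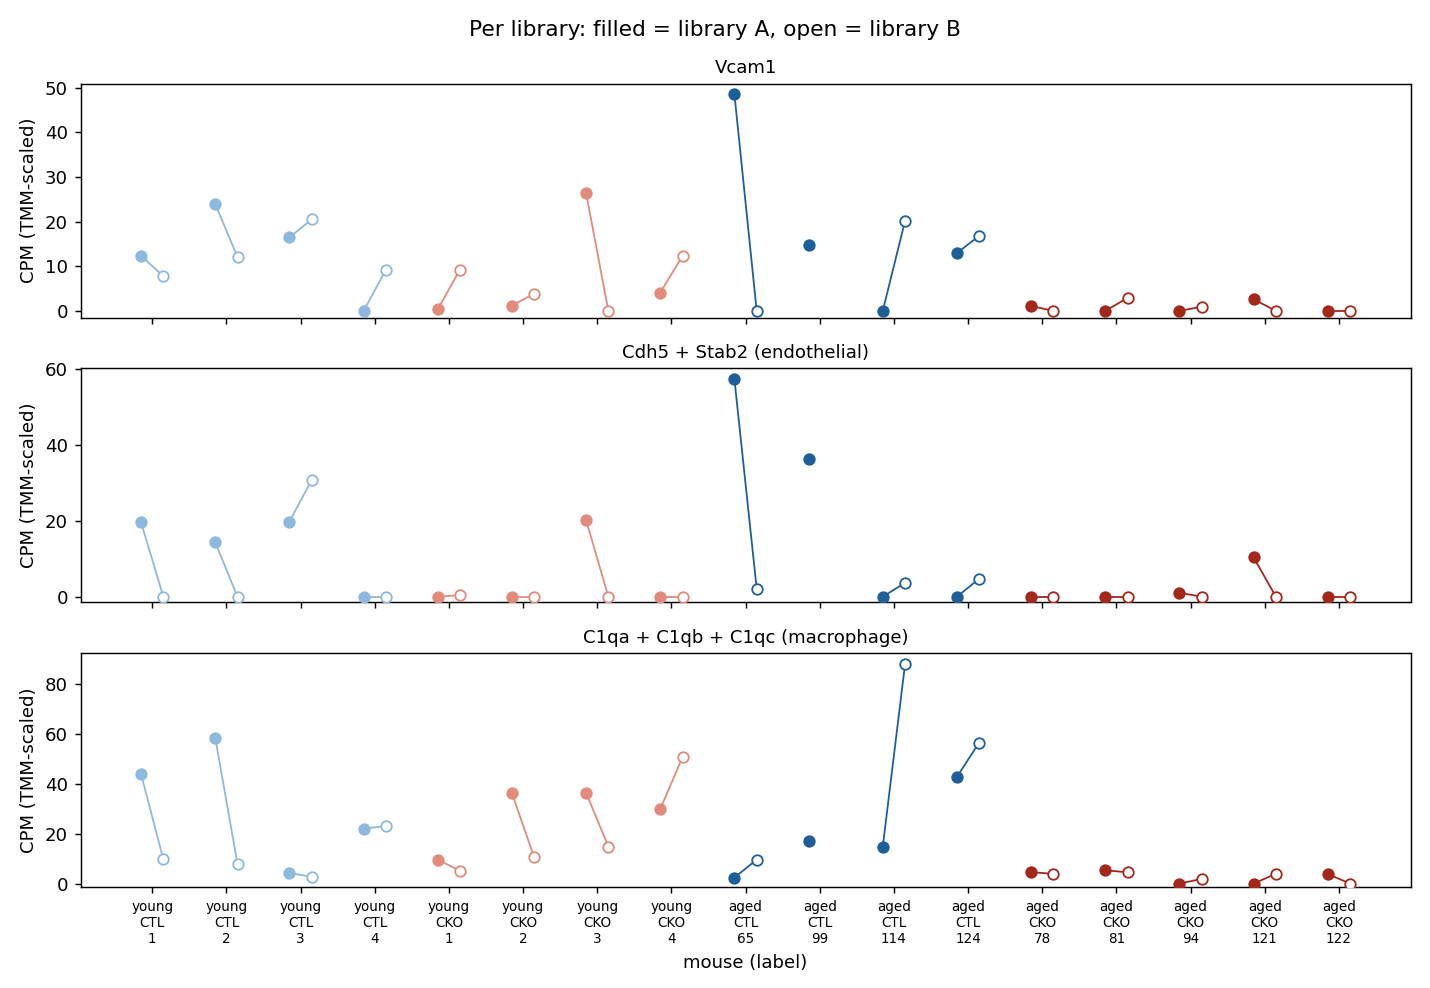
CPM per library (vertical axes) of Vcam1 (top), of Cdh5 and Stab2 summed (middle) and of C1qa, C1qb and C1qc summed (bottom) for the 17 mice along the horizontal axis, with library A filled, library B open and a line joining the libraries of a mouse. In aged CTL 65 the 48.5 CPM of Vcam1 in library A coincide with the highest endothelial value, and aged CKO libraries lie at or below 2.89 CPM of Vcam1 and 5.27 CPM of C1q genes.

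Of the 2 chains of VLA-4, the integrin that binds VCAM-1, Itga4 had lower values in CKO mice at both ages without passing the test in young mice, and Itgb1 did not. Itga4, the α4 chain, was at 94.0, 87.7, 164 and 250 CPM in aged CTL mice 65, 99, 114 and 124, and at 40.8, 74.3, 64.0, 99.0 and 58.5 CPM in aged CKO mice 78, 81, 94, 121 and 122. The groups overlapped only through mouse 121, the highest aged CKO mouse. On the log2 scale the difference was -1.13 (SE 0.31), -0.97 (SE 0.26) without mice 121 and 124, and -0.79 without mouse 124 alone. In young mice, Itga4 was at 126, 158, 77.9 and 104 CPM in CTL and at 77.4, 89.4, 99.0 and 75.2 CPM in CKO mice. The ranges overlapped, with the 3 highest mice in CTL. The log2 fold change was -0.45 (SE 0.21; unadjusted p = 0.0485, adjusted p = 0.703, edgeR quasi-likelihood test), which did not pass the test over all genes. In aged against young CTL mice it was 0.36 (SE 0.32; adjusted p = 0.510 by edgeR), and near 0 without the mouse aged CTL 124.

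Itgb1, the β1 chain shared by VLA-4 and the laminin receptor, had the log2 fold change nearest to 0 of the 8 members in young mice. Its 4 group means lay between 223 ± 41.3 CPM (SD, n = 4) in aged CTL and 281 ± 47.2 CPM (SD, n = 5) in aged CKO mice. In young mice the log2 fold change was 0.01 (SE 0.16, 95% interval -0.34 to 0.35; adjusted p = 0.996, edgeR), with both groups near 255 CPM. In aged mice it was 0.34 (SE 0.18) and in aged against young CTL mice -0.18 (SE 0.19; adjusted p = 0.594, edgeR). Its groups overlapped in each comparison.

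Itga6, the α6 laminin receptor chain, was the only member whose groups did not overlap in young mice, though it did not pass the test. The young CTL mice 1 to 4 had 27.9, 32.0, 24.0 and 29.2 CPM, and the young CKO mice 1 to 4 had 62.3, 45.7, 61.5 and 59.2 CPM. The lowest CKO mouse was above the highest CTL mouse, in a comparison in which 4.72% of all genes had groups that did not overlap. The log2 fold change was 1.02 (SE 0.21, 95% interval 0.57 to 1.47), or 2.03-fold. Its unadjusted p was 2.04e-04 and its adjusted p 0.0939 by edgeR's quasi-likelihood test, above the threshold of 0.05. Under 5 of 11 alternative settings Itga6 passed the threshold, of which 2 were fitted over mice (the likelihood ratio test, adjusted p = 0.00464, and DESeq2, adjusted p = 0.00210) and 3 counted the 2 libraries of a mouse as separate samples. The adjusted p ran from 7.21e-04 to 0.316 over the 11, with 0.192 for the Y-linked covariate, 0.203 for the mouse number as a block and 0.316 for all 17 mice in 1 fit. Without any 1 mouse it stayed above the threshold, at 0.0923 to 0.293, with log2 fold changes of 0.95 to 1.12.

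Aged mice showed the same order of Itga6 levels. The aged CTL mice 65, 99, 114 and 124 had 64.7, 62.0, 60.3 and 68.2 CPM, and the aged CKO mice 78, 81, 94, 121 and 122 had 110, 102, 130, 62.4 and 144 CPM. Mouse 121 alone lay within the range of the controls. The log2 fold change, a description here, was 0.79 (SE 0.23), and 0.95 (SE 0.19) without mice 121 and 124. Among CTL mice, Itga6 was higher in the aged ones, at 63.8 ± 3.45 CPM against 28.3 ± 3.34 CPM (SD, n = 4 each). The groups did not overlap, as was the case for 17.8% of all genes in that comparison. This log2 difference of 1.18 (SE 0.24; adjusted p = 0.0166, edgeR) made Itga6 the only member called with age out of the 7 tested, where 7.92% of 11633 genes were called. It fell short without young CTL 1, 3 or 4, with adjusted p of 0.0663, 0.0639 and 0.0642 by edgeR. Ordered by median, the groups ran from young CTL through young CKO and aged CTL to aged CKO, and each neighbouring pair but young CTL and young CKO overlapped.

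Some platelet-lineage genes had higher values in young CKO than in young CTL mice, as Itga6 had, and others did not. The 6 measured megakaryocyte markers of 7 listed (Pf4, Gp9, Gp1bb, Gp1ba, Ppbp and Itga2b) summed to 540 to 884 CPM in young CTL, 998 to 3100 CPM in young CKO, 350 to 559 CPM in aged CTL and 547 to 2017 CPM in aged CKO mice. Pf4, the platelet chemokine, ran from 296 to 635 CPM in young CTL and from 748 to 2753 CPM in young CKO mice. Gp9, a platelet glycoprotein, ran the other way, from 76.5 to 97.6 CPM in young CTL and from 43.9 to 75.8 CPM in young CKO mice. Gp1ba had medians of 25.9 and 23.1 CPM. Ppbp ran from 4.48 to 9.21 CPM in young CTL and from 12.1 to 29.0 CPM in young CKO mice, without overlap. Gp1bb and Itga2b had overlapping ranges, with medians of 76.8 and 75.2 CPM in young CTL and 123 and 105 CPM in young CKO mice. In aged mice the median of Gp9 was 63.1 CPM in CTL and 105 CPM in CKO mice. Pf4 made up 51.5% to 71.8% of the sum in young CTL and 74.7% to 88.8% in young CKO mice, and the 5 other markers summed to 239 to 297 CPM and 250 to 354 CPM, ranges that overlap. In aged mice the same 5 summed to 172 to 292 CPM in CTL and 257 to 705 CPM in CKO mice. Cd48, which is expressed on progenitors that the sort gates out, was at 53.6 to 87.9 CPM in young CTL and 97.9 to 106 CPM in young CKO mice, which did not overlap either, and at 0.625 to 28.5 CPM in aged CTL and 1.87 to 19.2 CPM in aged CKO mice. Cd48 was thus higher in young CKO than in young CTL mice, and lower in aged than in young CTL mice. In the latter comparison, age and what the label codes mark cannot be told apart. Flt3, the other progenitor marker listed, was at 28.8 to 35.7 CPM in young CTL and 17.6 to 40.3 CPM in young CKO mice. In aged mice Flt3 was at 19.2 to 103 CPM in CTL and 10.8 to 34.0 CPM in CKO mice, with medians of 32.3 and 12.5 CPM. The part of such genes and cells in the Itga6 differences was not tested.

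**Figure D3:**
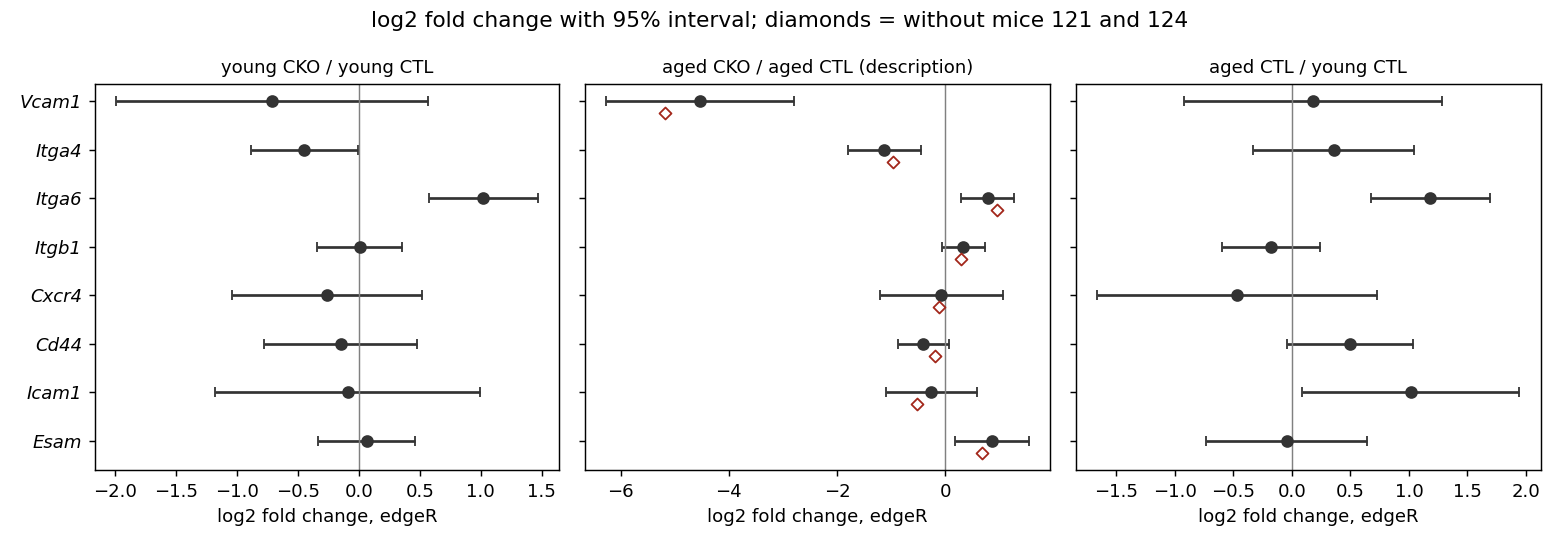
log2 fold change (horizontal axes, edgeR, with 95% interval) of the 8 genes for young CKO against young CTL, aged CKO against aged CTL and aged CTL against young CTL, with open diamonds for aged mice without 121 and 124. In young mice the interval of Itga6 (0.57 to 1.47) is the one farthest from 0, and the axis of the aged genotype panel is wider because Vcam1 reaches -4.53.

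Neither the homing receptor Cxcr4 nor the hyaluronan receptor Cd44 passed the test in young mice or with age. Cxcr4, the CXCL12 receptor, had group means of 18.6 ± 6.76 CPM in young CTL, 15.5 ± 5.73 in young CKO, 13.3 ± 9.91 in aged CTL (SD, n = 4 each) and 12.6 ± 3.12 CPM in aged CKO mice (SD, n = 5). Its log2 fold change was -0.26 (SE 0.37; adjusted p = 0.950, edgeR) in young and -0.07 (SE 0.53) in aged CKO mice, where the sign turned with 1 mouse left out (-0.41 without aged CTL 99 to 0.50 without aged CTL 114). The mouse aged CTL 99, of which 1 library was used, had 7 Cxcr4 counts (2.86 CPM) against 11.1 to 26.7 CPM in the other aged CTL mice. Cxcr4 also differed between libraries of a mouse, with 7 and 71 counts in aged CTL 124 and 78 and 1 in young CKO 3 (A and B). Cd44 was at 33.0 to 119 CPM in young CKO and 71.1 to 117 CPM in young CTL mice, with a log2 fold change of -0.15 (SE 0.30; adjusted p = 0.969, edgeR). In aged mice Cd44 was at 76.9 to 118 CPM in CKO and 95.5 to 173 CPM in CTL, a log2 fold change of -0.40 (SE 0.22), and -0.20 without mice 121 and 124. Aged and young CTL mice differed by 0.50 (SE 0.25; adjusted p = 0.226, edgeR) for Cd44 and by -0.47 (SE 0.56; adjusted p = 0.632, edgeR) for Cxcr4.

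Icam1, the other immunoglobulin-family integrin ligand, had overlapping groups in aged mice, where those of Vcam1 were apart. It was at 71.1, 131, 67.7 and 28.2 CPM in aged CTL mice 65, 99, 114 and 124, and at 45.2, 58.3, 108, 58.2 and 40.8 CPM in aged CKO mice 78, 81, 94, 121 and 122. The ranges overlapped almost fully. CKO against CTL, the log2 fold change was -0.25 (SE 0.39), or -0.51 (SE 0.34) without mice 121 and 124, and 0.15 without aged CTL 99. In young mice it was at 21.2 to 56.5 CPM in CTL and 4.38 to 56.9 CPM in CKO, with a log2 fold change of -0.09 (SE 0.51; adjusted p = 0.987, edgeR). The lowest value was that of young CKO 3, the mouse with the highest Vcam1 and lowest Cd44 of its group, and without it the log2 fold change was 0.28. Between aged and young CTL mice Icam1 had a fold of 2.02, a log2 difference of 1.02 (SE 0.43; unadjusted p = 0.0339, adjusted p = 0.155, edgeR). It passed the threshold without the mouse aged CTL 124 (1.29, adjusted p = 0.0247, edgeR) and with the Y-linked covariate (1.57, adjusted p = 0.0315, edgeR).

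Esam, the junctional protein, was at 187, 62.5, 254 and 182 CPM in aged CTL mice 114, 124, 65 and 99, and at 395, 298, 325, 214 and 321 CPM in aged CKO mice 78, 81, 94, 121 and 122. Mouse 121 was the lowest aged CKO mouse and mouse 124 the lowest aged CTL mouse. Their log2 fold change was 0.86 (SE 0.32), and 0.68 (SE 0.18) without both. No such difference was seen in young mice, with 138 to 257 CPM in CKO and 153 to 201 CPM in CTL, and a log2 fold change of 0.06 (SE 0.19; adjusted p = 0.978, edgeR). Aged and young CTL mice differed by -0.05 (SE 0.32; adjusted p = 0.945, edgeR), a sign that turned without aged CTL 124 (0.24).

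Counted over the 8 members, 0 were called in young mice at an adjusted p below 0.05 by edgeR, where 0.174% of 11526 genes were called (15 up and 5 down). Before adjustment, Itga6 and Itga4 had p below 0.05, 2 of 8, against 7.06% of all genes. DESeq2 over mice called 1 member, Itga6, and 0.669% of the 11518 genes to which it gave an adjusted p. The median log2 fold change of the 8 was -0.12 in young and -0.16 in aged mice, against a median of all genes near 0 in both, and the 7 members other than Vcam1 had a median of -0.07 in aged mice with 3 above and 4 below 0. Without mice 121 and 124, the groups of aged mice did not overlap for 4 members: Vcam1 and Itga4 were lower, and Itga6 and Esam higher. This held for 11.5% of the 12005 genes fitted, a share printed for scale, as the contrast is the one that chose the members. Among CTL mice the median of all genes was shifted by 0.11 with age, so that age differences are to be read relative to that value.

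Between genes, levels were compared per length, as CPM per kilobase of union exons in GENCODE M21. In young CTL mice Itgb1 (62.4 ± 11.02) and Esam (62.2 ± 6.89) led, followed by Cd44 (13.98 ± 2.99), Cxcr4 (10.3 ± 3.74), Icam1 (8.46 ± 3.83), Itga4 (8.34 ± 2.44), Itga6 (3.13 ± 0.370) and Vcam1 (1.48 ± 0.810 CPM per kilobase; SD, n = 4). Vcam1 was thus the lowest member in controls already. In aged CKO mice Esam led at 108 ± 22.8, Itga6 had 12.2 ± 3.44 and Vcam1 had 0.0690 ± 0.0657 CPM per kilobase (SD, n = 5). By these annotations Vcam1 lies at chr3:116109949-116129688 on the minus strand, Itga4 at chr2:79255426-79333123 and Itga6 at chr2:71745616-71858416, both on the plus strand. The antisense gene Gm43109 overlaps Vcam1, Gm47079 overlaps Icam1, Cerkl overlaps the end of Itga4 on the opposite strand, and 4 noncoding genes or pseudogenes overlap Itga6. The strand setting of the counting is not given in the sources used here, so that reads from these neighbours cannot be told apart.

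A wider panel of 137 adhesion and homing genes, of which 116 were in the table, gave few calls in young mice. Of 102 panel genes tested, edgeR called 1 higher and 0 lower, 15 passed at p below 0.05 before adjustment, against 0.174% and 7.06% of all genes, and the median log2 fold change was 0.02, with 56 above and 46 below 0. The called gene was Rap1b, a small GTPase that switches on integrins in platelets, at 1652 ± 204 CPM in CKO and 823 ± 147 CPM in CTL mice (SD, n = 4 each; log2 fold change 1.01, SE 0.15, adjusted p = 0.0117). No panel gene was called without the mouse young CTL 1 or without young CTL 2. Itgb3, the platelet β3 integrin chain, was at 82.4 ± 36.1 CPM against 32.9 ± 6.83 CPM (SD, n = 4 each; log2 fold change 1.33, SE 0.28, adjusted p = 0.0962, edgeR), and its partner chain Itga2b had a log2 fold change of 0.43 (SE 0.25; adjusted p = 0.804, edgeR). By role, 0 of 14 integrin subunits, 0 of 20 immunoglobulin-family molecules, 0 of 15 selectins and ligands, 0 of 13 homing receptors, 1 of 27 integrin activation and cytoskeletal genes, 0 of 5 cadherins and catenins and 0 of 8 tetraspanins were called.

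Further adhesion and homing genes, named whatever their values, were not called in young mice. Of the other VCAM-1 receptor chains, Itga9 was at 3.10 ± 2.22 CPM in CKO and 3.63 ± 2.03 CPM in CTL mice (SD, n = 4 each), and Itgb7 at 6.38 ± 4.95 and 7.42 ± 3.11 CPM. The ICAM-1 receptor chains Itgal and Itgb2 had log2 fold changes of 0.08 (SE 0.78) and 0.24 (SE 0.30). Log2 fold changes of the junctional genes Icam2, Pecam1, F11r and Jam3 were -0.15, 0.10, 0.26 and 0.61, and that of Robo4, a guidance receptor of HSCs, was -0.42. Those of the P-selectin ligand Selplg and the sialomucin Cd34 were 0.14 and 0.22, and that of the sphingosine receptor S1pr1 was 0.22. Talin (Tln1) and kindlin-3 (Fermt3), which switch integrins on, had 0.11 and 0.26. Each of these 14 genes had an adjusted p of 0.845 or more (edgeR).

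**Figure D4:**
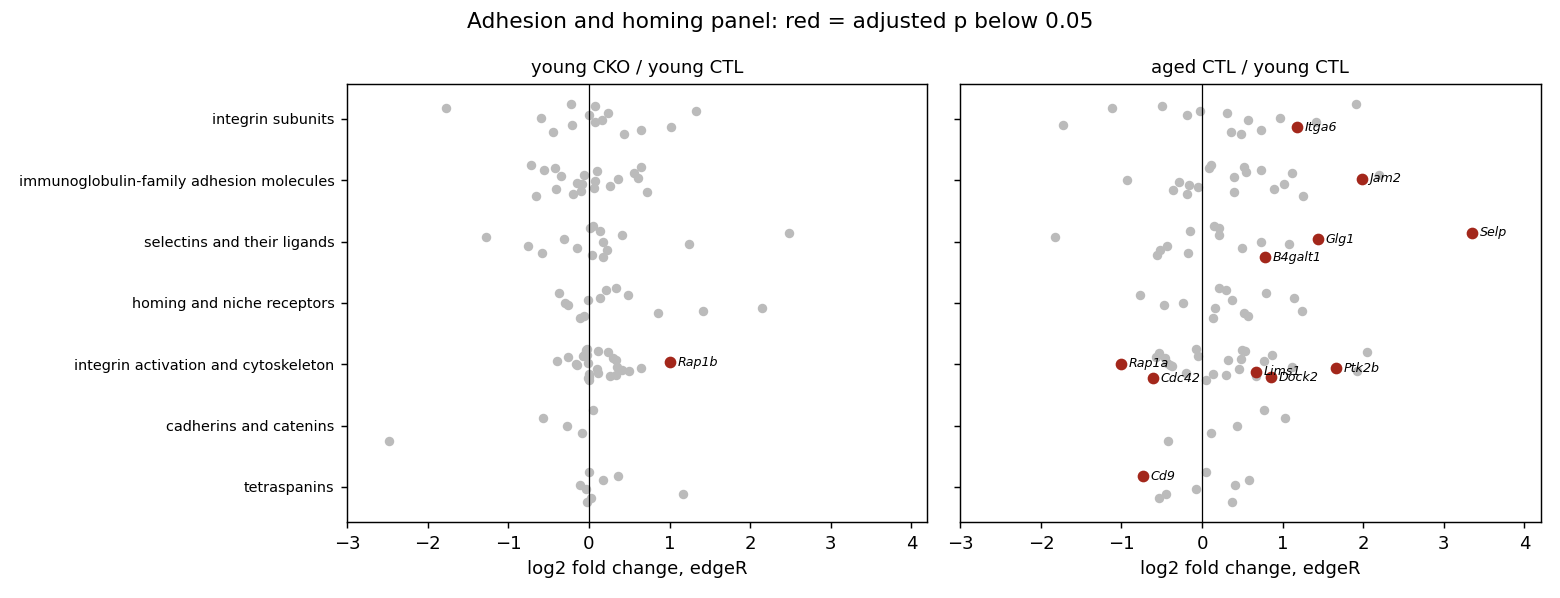
log2 fold change (horizontal axes, edgeR) of each panel gene tested, by role (vertical axis), for young CKO against young CTL and for aged CTL against young CTL, with genes at an adjusted p below 0.05 in red and named (Vcam1 is not plotted with age). The young genotype panel has 1 red point, Rap1b at 1.01, and the age panel has 11, 8 to the right of 0 and 3 to the left.

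With age in CTL mice, 11 of 103 panel genes were called by edgeR, 8 higher and 3 lower. Of all 11633 genes tested, 921 (7.92%) were called, 387 higher and 534 lower. The median log2 difference of the panel was 0.31, against 0.11 for all genes. Rises and falls here are differences between aged and young CTL mice. Age and what the label codes mark cannot be told apart in them. Next to Itga6, Ptk2b, a focal adhesion kinase, rose by 1.66 on the log2 scale (SE 0.22; adjusted p = 0.00649), and Selp (P-selectin) by 3.35 (SE 0.67; adjusted p = 0.0166). Lims1, an adaptor of integrin adhesions, rose by 0.67 (SE 0.16; adjusted p = 0.0272), and Jam2, a junctional molecule, by 1.98 (SE 0.50; adjusted p = 0.0320). Rap1a fell by 1.00 on the log2 scale (adjusted p = 0.0259), the tetraspanin Cd9 by 0.73 (adjusted p = 0.0392) and the GTPase Cdc42 by 0.61 (adjusted p = 0.0458). The number of panel genes called ran from 1, without young CTL 1 or young CTL 3, to 24, without aged CTL 124. Of the genes named whatever their values, Itgb7 was at 27.9 ± 19.1 CPM in aged and 7.42 ± 3.11 CPM in young CTL mice (SD, n = 4 each), a log2 difference of 1.91 (SE 0.56; adjusted p = 0.0532, edgeR) just short of the threshold.

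In aged CKO against aged CTL mice the panel had a median log2 fold change of 0.09 over 104 genes, with 59 above and 45 below 0. The groups did not overlap for 4 of the 104, against 3.49% of all genes in this comparison, from which nothing is read, with Vcam1 and the homing peptidase Dpp4 (12.2 ± 10.2 against 47.9 ± 18.5 CPM) lower, and the adhesion receptor Adgrg1 (2041 ± 317 against 1294 ± 320 CPM) and the Rap activator Rasgrp2 (147 ± 19.5 against 112 ± 12.1 CPM; SD, n = 5 and 4) higher; Dpp4, Adgrg1 and Rasgrp2 were named after their values were seen. Without mice 121 and 124, the groups did not overlap for 20 of 103 panel genes (14 higher and 6 lower in CKO), or 19.4% against 11.5% of all genes, and the median log2 fold change was 0.04, with 54 above and 49 below 0. Rap1b was at 1362 ± 485 CPM in aged CKO and 605 ± 177 CPM in aged CTL mice, and Itga2b at 249 ± 97.5 and 102 ± 46.4 CPM. Itgb7 was at 14.5 ± 18.7 CPM in aged CKO and 27.9 ± 19.1 CPM in aged CTL mice, and without mice 121 and 124 at 6.28 ± 3.30 and 33.7 ± 18.7 CPM (SD, n = 4 and 3).

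The 5 genes whose levels followed Vcam1 most closely over the 17 mice, in log2 CPM centred on the mean of each age, were Cep164 (Pearson r = 0.85), Nlgn2 (0.84), Zmym2 (0.82), Ebi3 (0.82) and Mgea5 (0.81), out of 12352 genes. None of them belongs to the adhesion panel. The values describe mice that share their groups, and carry no test.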

How the data were processed

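RNA-seq counts of 100 sorted HSCs per library were deposited as 1 table of raw whole-number counts per gene. The authors aligned reads with HISAT2 to mm10, per the labels and the methods, and counted them with Rsubread; the annotation and strand setting are not given in the sources used here. Here the 2 libraries of a mouse were summed (33 of 34 used; the counts of the library pairs of 16 mice differed by more than sampling noise), and mice were compared with edgeR 4.0.16 in R 4.3.3: TMM scaling, filterByExpr (minimum count 10, total 15), the quasi-likelihood test and Benjamini-Hochberg adjustment over all genes tested, called below 0.05. CPM used a prior count of 2 on the log scale. Intervals and zero limits cover counting error or the spread between mice only. Members, panel, markers and tests were chosen with earlier results of these data known. Genes named are the 8 members, up to 5 called panel genes per direction, 18 fixed panel genes (1 of which is not reported here) and the 5 nearest to Vcam1; Dpp4, Adgrg1 and Rasgrp2 were added after their values were seen, as were the marker genes described singly. Alternatives were other tests (likelihood ratio, DESeq2 1.42.0), scalings, filters, covariates, blocks and each mouse left out. The fits were tested on simulated counts whose changes were larger than those of the members tested, so power for small differences was not examined. Sequences and positions came from GENCODE M21 (GRCm38).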

Additional observations from a re-analysis of the deposited data

Results flagged for a closer look

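Over 36 groups of 4 or 5 mice examined for the 8 members and Ythdf2, 3 held a mouse set far apart from the rest of its group, where chance gives about 1 in 20, or 1.8. Itgb1 in the mouse young CTL 3 was at 322 CPM, above 229 to 235 CPM in the other young CTL mice. Icam1 in the mouse aged CKO 94 was at 108 CPM, above 40.8 to 58.3 CPM in the other aged CKO mice. Ythdf2 in the mouse labelled aged CKO 121 was at 186 CPM, above 72.6 to 87.7 CPM in the other aged CKO mice. The same mouse had the lowest Itga6 (62.4 CPM) and Esam (214 CPM) and the highest Vcam1 (1.56 CPM) and Itga4 (99.0 CPM) of its group. The other mouse whose Ythdf2 ran against its label, aged CTL 124, had the highest Itga4 (250 CPM) and Itga6 (68.2 CPM) and the lowest Esam (62.5 CPM) of the aged CTL mice, with Vcam1 at 15.2 CPM, within the range of the others.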

How the results depend on the processing

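The aged Vcam1 log2 fold change stayed between -5.19 and -4.54 over 5 other settings and moved by more than 1 SD of log2 CPM between mice of a group only without library A of aged CKO 121 (-5.39); over libraries Vcam1 fell below the filter and could not be fitted. Genes called in young mice numbered 20, against 90 (likelihood ratio test over libraries), 67 (over mice), 77 (DESeq2), 47 (quasi-likelihood test over libraries), 10 (Y-linked covariate) and 1 (all 17 mice in 1 fit), and 0 to 18 with 1 mouse left out (0 without young CTL 1 or 2, 6 and 9 without young CTL 3 and 4, and 6, 8 and 12 without young CKO 1, 2 and 4). Panel genes called were 1, against 6, 4, 3, 4, 1 and 0 in that order, and 0 to 2 with 1 mouse left out. The members called were 0, and 1 (Itga6) in the first 4 of these. With a replicate block the young mouse numbers (correlations of same-numbered mice -0.019 to 0.049, so they share only a number) gave 2 panel genes and an Itga6 adjusted p of 0.203; with library letter as a replicate block over libraries, 50 genes, 4 panel genes and 1 member were called. With age, 921 genes were called, against 1863 and 1517 (likelihood ratio tests over libraries and mice), 1845 (DESeq2), 1825 (all mice in 1 fit), 1491 (libraries) and 1744 (without aged CTL 124), and 48 to 1744 with 1 mouse left out: 406 without aged CTL 114, 344 without aged CTL 99, and 64, 515, 129 and 48 without young CTL 1 to 4. Panel genes called with age were 11, against 18 (likelihood ratio over libraries), 21 (DESeq2) and 24 (without aged CTL 124), and 1 to 24 with 1 mouse left out (6 and 3 without aged CTL 114 and 99, and 1, 4, 1 and 3 without young CTL 1 to 4). Members called with age were 1, against 2 (Itga6 and Icam1) with the Y-linked covariate and without aged CTL 124, and 0 to 2 with 1 mouse left out. Signs of small differences turned in young mice for Cxcr4 (0.032) and Icam1 (0.37) with the Y-linked covariate, and with 1 mouse left out for Itgb1 (-0.073 to 0.15), Esam (-0.13 to 0.19), Cd44 (-0.36 to 0.12), Icam1 (-0.45 to 0.28) and Cxcr4 (-0.51 to 0.029). With age they turned for Esam (0.079 with the Y-linked covariate, 0.24 without aged CTL 124, and -0.31 to 0.24 with 1 mouse left out) and Itga4 (-0.0038 without aged CTL 124, and -0.0038 to 0.53 with 1 mouse left out), and, untested, for Vcam1 (-0.13 to 0.41 with 1 mouse left out, and 0.85 with the Y-linked covariate). In aged CKO against CTL mice they turned for Cxcr4 (0.027 with the Y-linked covariate, -0.41 to 0.50 with 1 mouse left out, and -0.26 to 0.19 with 1 library left out) and Icam1 (0.15 without aged CTL 99, and -0.55 to 0.15 with 1 mouse left out). The cause was not tested. Depth limits low genes: before TMM scaling, 3 counts are 0.296 to 1.35 CPM in a mouse, and 0.296 to 0.618 CPM in an aged CKO mouse.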
